A study of Mus musculus with 9 samples.

Results

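36 genes of the acrosome and of sperm-egg interaction were followed among the 32035 genes in the RNA tables of mouse testis. They are a list of gene names, from the acrosomal protease acrosin to the fusion protein IZUMO1, and the list was drawn up with earlier results of these data known. Each was found under 1 gene identifier, and all 36 had enough counts to be tested in each comparison.

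The acrosome is a vesicle formed from the Golgi apparatus that spreads over the nucleus of the spermatid. It carries a matrix of proteases, hyaluronidases and binding proteins, which are released near the egg. Its release uncovers the inner acrosomal membrane and the equatorial segment, where IZUMO1 and other surface proteins bring the sperm membrane to the membrane of the egg. Many of these genes are transcribed in spermatocytes and round spermatids, before the nucleus condenses and transcription ceases.

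RNAseq was performed on whole testes from 3 groups of 3 mice each, namely WT, Kpna6 ΔIBB/ΔIBB and Kpna6-/-, all 15 weeks old and on the C57Bl6/N background. Kpna6 codes for importin α7, an adaptor that carries proteins into the nucleus. In Kpna6 ΔIBB/ΔIBB mice an early exon is replaced by a neomycin cassette, and only a truncated protein that lacks the importin β binding domain is made, in germ cells and in Sertoli cells. Males are infertile. In Kpna6-/- mice a gene trap sits in the first intron, yet a testis-specific first exon downstream of it still gives the full-length protein in germ cells, so that it is missing in Sertoli cells but not in spermatids, and males are fertile. For both lines the paper reports a lower sperm count than in WT, and fewer Sertoli cells and round spermatids. Both alleles are present in all cells of the animal, and nothing marks the RNA of one testis cell type. Each sample is taken as the testis of a separate mouse, and with 3 against 3 samples an exact test of 1 gene could not give a p below 0.1, so tests were fitted over all genes.

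Between 24859751 and 31484692 estimated counts per testis fell on genes. The normalized count of Kpna6, in CPM (counts divided by the TMM-adjusted size of each library), was 201, 325 and 334 in the WT testes, 81.2, 85.3 and 81.8 in the Kpna6 ΔIBB/ΔIBB testes and 247, 249 and 262 in the Kpna6-/- testes. The ΔIBB/ΔIBB samples were far below all others, whereas the Kpna6-/- values lay within the WT range. A sum over all Kpna6 transcripts holds the germ cell transcript that escapes the trap, so it does not check the Kpna6-/- label. 14 epididymis and seminal vesicle markers summed to between 13.9 and 17.7 TPM (kallisto's level scaled for length and library) in WT, to 38.5, 40.6 and 193 TPM in ΔIBB/ΔIBB replicates 1, 2 and 3, and to between 23.9 and 36.5 TPM in Kpna6-/- samples, with 7 of the 14 below 1 TPM in each sample. The part of such RNA in the results was not tested. Without ΔIBB/ΔIBB replicate 3, 24 of the 36 genes were lower than in WT, with a median log2 fold change of -0.33, and 22 were lower than in Kpna6-/- (edgeR).

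In WT testes most of the 36 genes were abundant. The median of their mean TPM, a level scaled for transcript length, was 122.5, against 12.2 TPM over the 16602 genes with at least 1 TPM, and 21 of the 36 exceeded 100 TPM. Crisp2, a cysteine-rich secretory protein of the acrosome and the tail, had by far the highest level with 2215 ± 98.1 TPM (SD, n = 3), rank 28 of all genes. Acrbp, the binding protein of proacrosin, followed with 544 ± 31.6 TPM (SD, n = 3), and then Izumo2 with 413 ± 18.7 TPM (SD, n = 3). The ranges of these 3 genes did not overlap with each other or with those below. From the fourth place on levels lay close together, and in 22 of the 35 pairs of neighbours in the order the ranges of the 3 WT samples overlapped. Zpbp2 (294 ± 15.2 TPM), Spaca1 (273 ± 17.9 TPM), Acrv1 (271 ± 18.4 TPM) and Spaca4 (270 ± 20.5 TPM; SD, n = 3 for each) could not be ordered beyond their spread. Izumo1, the sperm receptor that binds the egg protein JUNO, had a level of 84.1 ± 7.09 TPM, and the fusion factors Dcst2 and Dcst1 had 57.5 ± 0.666 and 56.5 ± 1.25 TPM (SD, n = 3 for each). At the low end were 2 trafficking genes, Gopc with 10.8 ± 0.532 TPM and Vps54 with 9.21 ± 1.59 TPM (SD, n = 3 for each).

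**Figure D1:**
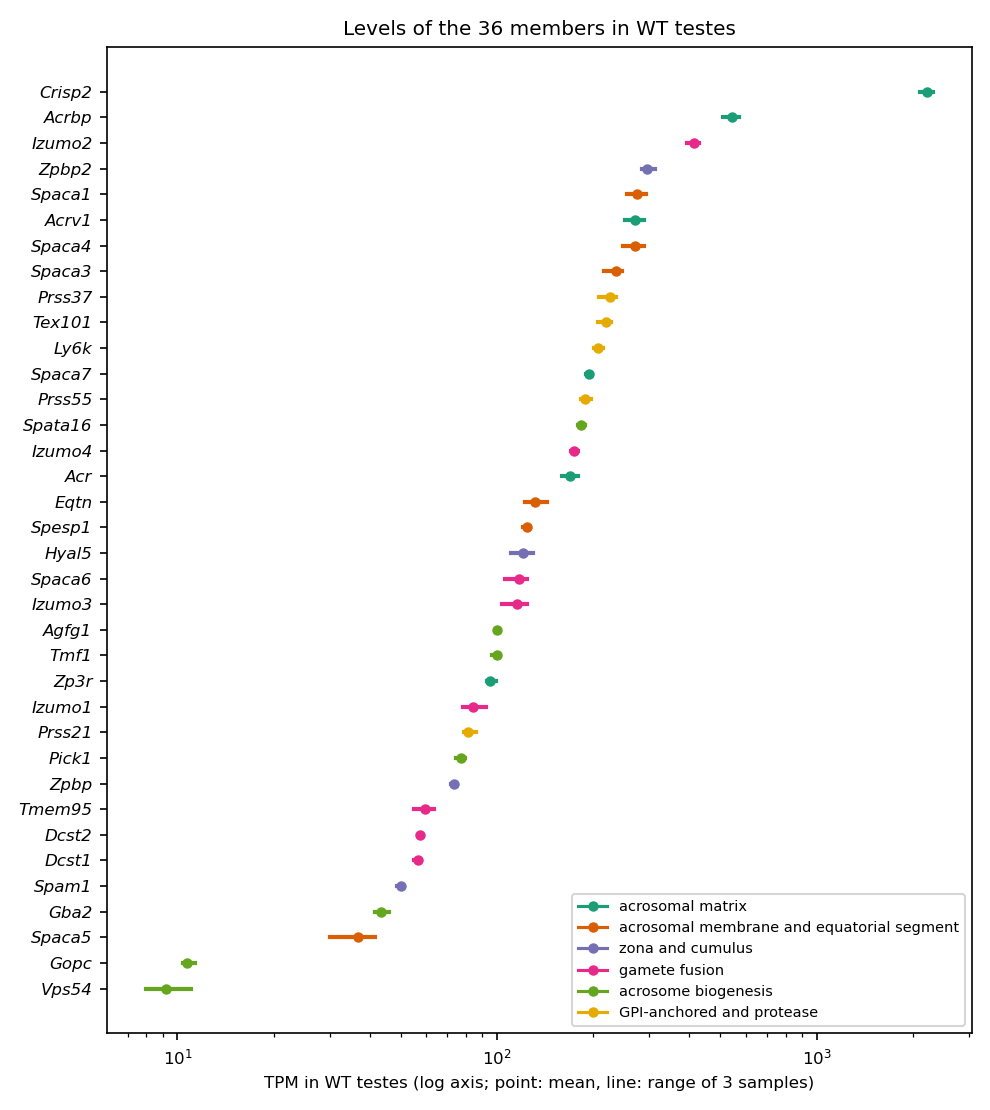
Mean TPM (log axis) of the 36 genes in WT testes, in order of level and coloured by role; the point is the mean and the line the range of the 3 samples. Crisp2 stood at 2215 TPM and Vps54 at 9.21 TPM, with most genes between 50 and 300 TPM.

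The first comparison asked how these genes stand in testes where neither germ cells nor Sertoli cells have full-length importin α7. Of the 36 genes, 25 were lower and 0 higher in Kpna6 ΔIBB/ΔIBB than in WT testes (edgeR quasi-likelihood test, adjusted p below 0.05). Among all 18797 genes tested, 36.6% were called, 18.9% lower and 17.7% higher. The median log2 fold change of the 36 was -0.29, against 0.01 over all genes tested, and values ran from -0.80 for Eqtn to 0.12 for Tex101. In 26 of the 36 genes every ΔIBB/ΔIBB sample was below every WT sample, which held for 25.2% of all genes tested. For 7 genes the fall was larger than 30%, a limit that was not counted over all genes tested. In bulk RNA, fewer spermatids and less RNA per spermatid cannot be told apart. The scaling bears on the small changes: with library sizes alone the median over all genes moved to 0.11, 18 of the 36 were called lower and 3 higher, and over all genes the split changed from 3547 lower and 3327 higher to 2326 lower and 5416 higher. Relative to the median of all genes the 36 stand at -0.30 in either case, since a change of scaling shifts all genes alike.

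**Figure D2:**
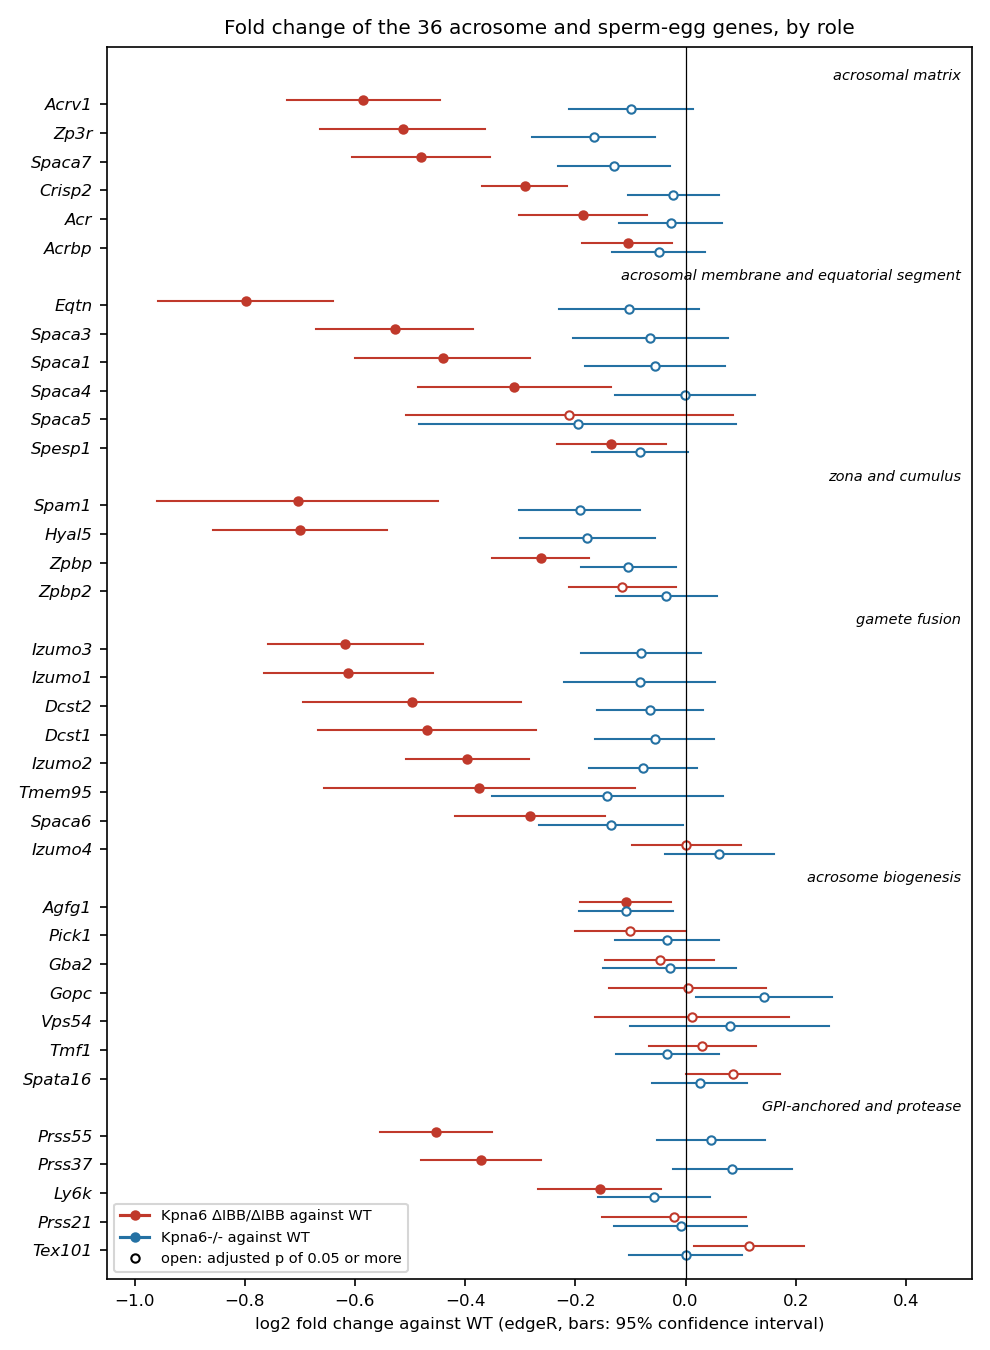
Log2 fold change of each gene against WT in Kpna6 ΔIBB/ΔIBB (red) and Kpna6-/- testes (blue), grouped by role; bars are 95% confidence intervals from edgeR and filled points have an adjusted p below 0.05. In ΔIBB/ΔIBB, contents and membranes of the acrosome lie well left of 0, with Eqtn at -0.80, while the biogenesis genes sit close to 0 and the blue points are all open.

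The 6 genes of the acrosomal matrix were all called lower in Kpna6 ΔIBB/ΔIBB testes, with a median log2 fold change of -0.39. Acrv1 codes for SP-10, an acrosomal protein made from the round spermatid stage on. The normalized counts of Acrv1 were 202, 186 and 207 CPM in WT, 126, 124 and 145 CPM in ΔIBB/ΔIBB and 176, 185 and 196 CPM in Kpna6-/- testes. Every ΔIBB/ΔIBB sample was below every WT sample, and the log2 fold change was -0.58 ± 0.06 (SE; adjusted p = 6.4e-05, edgeR). Zp3r had 140.1, 139 and 143 CPM in the 3 WT samples, 90.9, 92.7 and 111 CPM in ΔIBB/ΔIBB and 118, 123 and 135 CPM in Kpna6-/-. Zp3r codes for a matrix protein also called sp56. Its RNA fell by 29.9%, and the log2 fold change was -0.51 ± 0.07 (SE; adjusted p = 0.000213, edgeR). Replicate 3 had the highest of the 3 ΔIBB/ΔIBB values for both genes. In WT testes Spaca7 gave 78.9, 77.5 and 79.3 CPM, in ΔIBB/ΔIBB testes 54.4, 53.1 and 60.9 CPM and in Kpna6-/- testes 68.8, 71.8 and 75.0 CPM. Spaca7 is released from the acrosome and takes part in dispersing the cumulus; its groups did not overlap, and the log2 fold change was -0.48 ± 0.06 (SE; adjusted p = 0.000108, edgeR). Crisp2, the most abundant of all 36, fell by 18.3%, from between 1594 and 1735 CPM in WT to between 1343 and 1385 CPM in ΔIBB/ΔIBB, and the log2 fold change was -0.29 ± 0.04 (SE; adjusted p = 0.00012, edgeR).

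Acr, the gene of the protease acrosin, and Acrbp, which binds its precursor, fell least in the matrix. For Acr, 165, 177 and 180.0 CPM were counted in WT, 146, 149 and 163 CPM in ΔIBB/ΔIBB and 170.1, 168 and 175 CPM in Kpna6-/- samples. All ΔIBB/ΔIBB samples lay just under the lowest WT value, and the log2 fold change was -0.19 ± 0.05 (SE; adjusted p = 0.0178, edgeR). Acrbp reached 389.6, 407 and 399.7 CPM in WT, against 362, 364 and 382 CPM in ΔIBB/ΔIBB and 404, 375 and 379 CPM in Kpna6-/- testes. All ΔIBB/ΔIBB samples were below all WT samples; Acrbp fell by 7.05%, and the log2 fold change was -0.10 ± 0.04 (SE; adjusted p = 0.0444, edgeR). Neither call held with library sizes alone, where the adjusted p was 0.194 for Acr and 0.881 for Acrbp (edgeR), and both were lost without ΔIBB/ΔIBB replicate 1 or 2 and without WT replicate 2 or 3. Acrbp shares an identical stretch of 793 bases with the gene model Gm44597, so the split of reads between them is uncertain.

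Among the 6 genes of the acrosomal membranes and the equatorial segment, 5 were called lower, with a median of -0.38. Eqtn codes for equatorin, a membrane protein of the acrosome and the equatorial segment with a part in membrane fusion. The normalized counts of Eqtn were 92.0, 88.1 and 100.5 CPM in WT, 51.2, 50.2 and 59.4 CPM in ΔIBB/ΔIBB and 82.2, 87.2 and 92.2 CPM in Kpna6-/- testes. The groups were widely apart: the highest ΔIBB/ΔIBB value was below the lowest of the 6 other samples. Eqtn fell by 42.5%, the largest fall of the 36, and the log2 fold change was -0.80 ± 0.07 (SE; adjusted p = 2.53e-05, edgeR). Spaca3 had 116, 102 and 112 CPM in the 3 WT samples, 73.1, 72.2 and 82.5 CPM in ΔIBB/ΔIBB and 98.2, 102 and 116 CPM in Kpna6-/-. Spaca3, which codes for a lysozyme-like protein of the sperm surface, again had no overlap between ΔIBB/ΔIBB and WT. The log2 fold change was -0.53 ± 0.07 (SE; adjusted p = 0.000137, edgeR). In WT testes Spaca1 gave 209.7, 197 and 218 CPM, in ΔIBB/ΔIBB testes 143, 142 and 173 CPM and in Kpna6-/- testes 189.5, 192 and 220.3 CPM. In Spaca1, which the acrosome needs for its expansion over the nucleus, replicate 3 was the nearest to WT, and the log2 fold change was -0.44 ± 0.07 (SE; adjusted p = 0.000839, edgeR).

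The remaining 3 genes of the membranes had smaller differences. For Spaca4, 99.3, 90.9 and 103 CPM were counted in WT, 75.4, 71.3 and 89.1 CPM in ΔIBB/ΔIBB and 93.7, 95.2 and 105 CPM in Kpna6-/- samples. Spaca4 codes for a GPI-anchored surface protein. All its ΔIBB/ΔIBB samples were below WT, with replicate 3 only slightly so. The log2 fold change was -0.31 ± 0.08 (SE; adjusted p = 0.0106, edgeR). Spesp1 reached 278, 289.9 and 285 CPM in WT, against 244, 258 and 273 CPM in ΔIBB/ΔIBB and 271, 258 and 278 CPM in Kpna6-/- testes. Spesp1 codes for a protein of the equatorial segment. Its RNA fell by 8.93%, and the log2 fold change was -0.14 ± 0.04 (SE; adjusted p = 0.0368, edgeR). With library sizes alone the adjusted p was 0.0597 for Spaca4 and 0.517 for Spesp1 (edgeR). Spaca5, a second lysozyme-like gene, lies on chromosome X and had the lowest counts of the 36. Its ΔIBB/ΔIBB and WT values overlapped, between 8.59 and 12.4 CPM, and its log2 fold change of -0.21 had a 95% interval from -0.51 to 0.09, which holds the value of Spaca1.

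Of the 4 genes that act on the cumulus and the zona pellucida, 3 were called lower, and the median of the 4 was -0.48. The hyaluronidases Spam1 (PH-20) and Hyal5 open the matrix between cumulus cells and lie 56.9 kb apart on chromosome 6, on the same strand (GRCm38, 24791188 to 24801048 and 24857997 to 24891958). The normalized counts of Spam1 were 72.4, 70.5 and 68.3 CPM in WT, 36.8, 38.4 and 53.8 CPM in ΔIBB/ΔIBB and 59.95, 60.05 and 65.1 CPM in Kpna6-/- testes. 2 of the ΔIBB/ΔIBB testes had about the same low value, whereas replicate 3 lay between them and WT. The fall was 38.6%, and the log2 fold change was -0.70 ± 0.12 (SE; adjusted p = 0.000848, edgeR). Hyal5 had 132, 114 and 132 CPM in the 3 WT samples, 78.4, 70.2 and 83.3 CPM in ΔIBB/ΔIBB and 108, 111 and 116 CPM in Kpna6-/-. Every ΔIBB/ΔIBB value was again below every other sample. Hyal5 fell by 38.4%, and the log2 fold change was -0.70 ± 0.07 (SE; adjusted p = 4.79e-05, edgeR).

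The zona binding proteins Zpbp and Zpbp2, which organise the acrosomal matrix, had smaller differences than the hyaluronidases. In WT testes Zpbp gave 252, 241 and 239 CPM, in ΔIBB/ΔIBB testes 199, 199 and 209.9 CPM and in Kpna6-/- testes 222, 227 and 233 CPM. All ΔIBB/ΔIBB values were below the others, and the log2 fold change was -0.26 ± 0.04 (SE; adjusted p = 0.000515, edgeR). For Zpbp2, 259.7, 281 and 257 CPM were counted in WT, 239, 251 and 245 CPM in ΔIBB/ΔIBB and 257, 262 and 260.1 CPM in Kpna6-/- samples. For Zpbp2 the ΔIBB/ΔIBB samples were also below WT, with a difference of -7.68%, but the adjusted p was 0.062 (edgeR), with a 95% interval from -0.21 to -0.02. DESeq2 called it lower.

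The 8 genes of gamete fusion had a median log2 fold change of -0.43, and 7 were called lower. Izumo1 reached 84.1, 80.8 and 91.8 CPM in WT, against 51.9, 54.2 and 61.2 CPM in ΔIBB/ΔIBB and 74.6, 80.7 and 87.2 CPM in Kpna6-/- testes. The highest ΔIBB/ΔIBB value was well below the lowest WT value, and the log2 fold change was -0.61 ± 0.07 (SE; adjusted p = 8.38e-05, edgeR). Izumo1 shares an identical stretch of 552 bases with the neighbouring Rasip1, so the split of reads between them is uncertain. The normalized counts of Izumo3 were 74.8, 79.8 and 82.2 CPM in WT, 50.9, 47.5 and 55.5 CPM in ΔIBB/ΔIBB and 72.0, 77.4 and 74.6 CPM in Kpna6-/- testes. Izumo3, a relative of Izumo1, fell by 34.8%, against 34.6% for Izumo1, and the log2 fold change was -0.62 ± 0.06 (SE; adjusted p = 4.85e-05, edgeR). Izumo2 fell from 94.9 ± 3.92 (SD, n = 3) to 71.9 ± 3.19 (SD, n = 3) CPM on average, and the log2 fold change was -0.40 ± 0.05 (SE; adjusted p = 0.000184, edgeR). Izumo4 had 94.5, 100 and 94.4 CPM in the 3 WT samples, 93.3, 97.2 and 97.6 CPM in ΔIBB/ΔIBB and 103, 101 and 97.2 CPM in Kpna6-/-. Izumo4, the member of the family that has no membrane anchor, had mixed samples of WT and ΔIBB/ΔIBB, and its log2 fold change of 0.00 had a 95% interval from -0.10 to 0.10. On the TPM scale it was called higher, by 0.12 in log2 (limma, adjusted p = 0.045).

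Dcst1 and Dcst2 are transmembrane proteins that act together in fusion. The genes lie on opposite strands of chromosome 3, where their spans, introns included, overlap by 3279 bases, and their transcripts share no stretch of 100 bases or more. In WT testes Dcst1 gave 95.3, 97.5 and 96.8 CPM, in ΔIBB/ΔIBB testes 60.7, 65.5 and 82.1 CPM and in Kpna6-/- testes 93.4, 87.2 and 98.4 CPM. For Dcst2, 98.2, 96.5 and 95.1 CPM were counted in WT, 58.4, 66.0 and 80.0 CPM in ΔIBB/ΔIBB and 91.3, 90.01 and 96.2 CPM in Kpna6-/- samples. Both genes showed the same order of samples in ΔIBB/ΔIBB, lowest in replicate 1 and highest in replicate 3, and all 3 were below WT. For Dcst1 the log2 fold change was -0.47 ± 0.09 (SE; adjusted p = 0.0022, edgeR), and for Dcst2 the log2 fold change was -0.50 ± 0.09 (SE; adjusted p = 0.00154, edgeR). Dcst1 also shares a stretch of 1270 bases at 99.8% identity with the gene model Gm10702 on the opposite strand. Short stretches of Dcst1 match other genes at 95% identity. When all of these were counted together with Dcst1 the call was lost (adjusted p = 0.148, edgeR). With a limit of 99% identity, added after seeing the data, Dcst1 was still called lower (edgeR).

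Spaca6 and Tmem95, needed for fusion after the sperm has bound, were lower as well. Spaca6 reached 49.4, 50.4 and 54.4 CPM in WT, against 42.4, 39.4 and 44.5 CPM in ΔIBB/ΔIBB and 43.7, 47.1 and 49.6 CPM in Kpna6-/- testes. No ΔIBB/ΔIBB value reached the lowest WT value, and the log2 fold change was -0.28 ± 0.06 (SE; adjusted p = 0.00453, edgeR). The normalized counts of Tmem95 were 12.8, 13.6 and 11.6 CPM in WT, 8.73, 8.62 and 11.8 CPM in ΔIBB/ΔIBB and 10.4, 11.3 and 12.8 CPM in Kpna6-/- testes. Here the groups overlapped, with replicate 3 of ΔIBB/ΔIBB above the lowest WT sample, and the log2 fold change was -0.38 ± 0.13 (SE; adjusted p = 0.0404, edgeR). The call for Tmem95 was lost with library sizes alone (adjusted p = 0.111, edgeR) and without WT replicate 1 or 2 or ΔIBB/ΔIBB replicate 1 or 2.

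**Figure D3:**
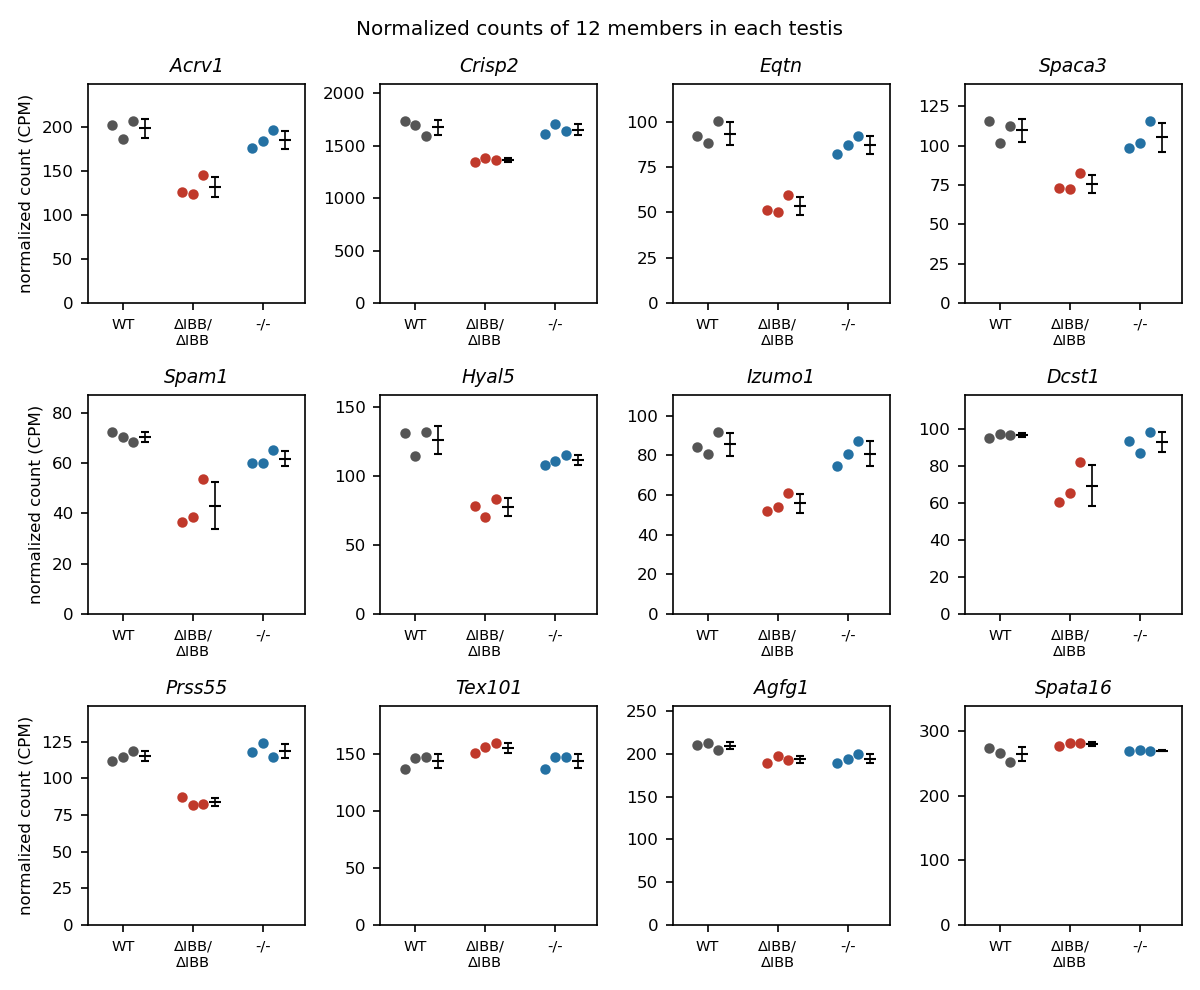
Normalized counts (CPM, axes from 0) of 12 of the genes in each testis, with replicates 1 to 3 from left to right in each group, and the mean with SD in black. Eqtn, Spam1, Hyal5, Izumo1, Acrv1, Spaca3, Dcst1, Crisp2, Agfg1 and Prss55 are lower in all 3 ΔIBB/ΔIBB samples than in all WT samples, whereas Spata16 and Tex101 are not.

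Of the 7 genes needed to build the acrosome, 1 was called lower, Agfg1, and 0 higher, and their median log2 fold change was 0.01. Gopc, Tmf1 and Vps54 serve vesicle traffic at the Golgi, Pick1 binds Gopc, Gba2 degrades glucosylceramide, and Agfg1 is needed for the fusion of proacrosomal vesicles. Agfg1 had 210.2, 213 and 205 CPM in the 3 WT samples, 189.9, 198 and 193 CPM in ΔIBB/ΔIBB and 189, 194 and 200.3 CPM in Kpna6-/-. Every ΔIBB/ΔIBB sample was below WT, but Agfg1 fell by 7.24% only, and the log2 fold change was -0.11 ± 0.04 (SE; adjusted p = 0.042, edgeR). With library sizes alone its adjusted p was 0.83 (edgeR), and the call was lost when any 1 of the 6 samples was left out. In WT testes Spata16 gave 273, 266 and 252 CPM, in ΔIBB/ΔIBB testes 277, 280.5 and 281 CPM and in Kpna6-/- testes 269, 269.9 and 268 CPM. The ΔIBB/ΔIBB values of Spata16, a Golgi protein of spermatids, were the highest, but by only 6.17%, and the log2 fold change was 0.09 ± 0.04 (SE; adjusted p = 0.106, edgeR). For Tmf1, 344, 338 and 314 CPM were counted in WT, 323, 345 and 345 CPM in ΔIBB/ΔIBB and 335, 323 and 316 CPM in Kpna6-/- samples. For Tmf1 the samples of the groups were mixed, and the log2 fold change was 0.03 ± 0.04 (SE; adjusted p = 0.629, edgeR). With library sizes alone Spata16 and Tmf1 were called higher, at 0.18 and 0.13 in log2 (edgeR, adjusted p = 0.00297 and 0.0322). Gopc, Pick1, Gba2 and Vps54 had log2 fold changes between -0.10 and 0.01, and their 95% intervals together ran from -0.20 to 0.19, so that the value of Izumo1 lay outside them. Reads of Pick1 are shared with the overlapping model Gm49486, and ends of Gba2 overlap Creb3 and Rgp1.

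Among the 5 GPI-anchored proteins and serine proteases of the sperm surface, 3 were called lower, and the median was -0.16. Prss37 and Prss55 are proteases, Prss37 without catalytic activity, that sperm need to pass from the uterus to the oviduct. Prss55 reached 112, 114 and 119 CPM in WT, against 87.2, 82.0 and 82.3 CPM in ΔIBB/ΔIBB and 118, 124 and 115 CPM in Kpna6-/- testes. The normalized counts of Prss37 were 144, 133 and 142 CPM in WT, 113, 106 and 104 CPM in ΔIBB/ΔIBB and 146, 157 and 141 CPM in Kpna6-/- testes. In both genes the ΔIBB/ΔIBB samples were below all WT and Kpna6-/- samples, and replicate 3 was not the highest of its group. For Prss55 the log2 fold change was -0.45 ± 0.05 (SE; adjusted p = 4.53e-05, edgeR), and for Prss37 the log2 fold change was -0.37 ± 0.05 (SE; adjusted p = 0.00023, edgeR). Ly6k had 79.5, 85.4 and 80.4 CPM in the 3 WT samples, 70.8, 72.1 and 76.7 CPM in ΔIBB/ΔIBB and 76.9, 78.4 and 80.7 CPM in Kpna6-/-. Ly6k codes for a GPI-anchored partner of TEX101. Its RNA fell by 10.2%, and the log2 fold change was -0.15 ± 0.05 (SE; adjusted p = 0.0332, edgeR). In WT testes Tex101 gave 137, 147 and 147 CPM, in ΔIBB/ΔIBB testes 150.3, 155 and 159 CPM and in Kpna6-/- testes 137, 147 and 147 CPM. Tex101 itself, a GPI-anchored protein of germ cells that works in the maturation of sperm surface proteins, had its 3 highest values in ΔIBB/ΔIBB testes, but the log2 fold change was 0.12 ± 0.04 (SE; adjusted p = 0.0673, edgeR). Prss21, the GPI-anchored protease testisin, had a log2 fold change of -0.02 with a 95% interval from -0.15 to 0.11. The adjusted p of Ly6k was 0.372 with library sizes alone and its call was also lost without WT replicate 2 or 3 or ΔIBB/ΔIBB replicate 1 or 2, as was that of Spesp1. With library sizes alone Tex101 was called higher at 0.21 in log2 (edgeR, adjusted p = 0.00264).

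The second comparison concerned Kpna6-/- testes, in which germ cells keep the protein and Sertoli cells lose it. None of the 36 genes was called in either direction by edgeR (0 of 36, against 1.6% of 18681 genes tested, 0.712% lower and 0.889% higher; between 0.484% without Kpna6-/- replicate 1 and 2.74% without WT replicate 1), 8 had an unadjusted p below 0.05, and DESeq2 called 1, Spam1, lower. The median log2 fold change was -0.06, against 0.00 over all genes tested. Of the 36 values 30 were below 0, and of the 18681 over all genes tested 9219 were. An unadjusted p below 0.05 was found in 2778 of the 18681 (edgeR). The lowest adjusted p was 0.0826 for Spam1, whose 3 Kpna6-/- values lay below the 3 WT values, and the log2 fold change was -0.19 ± 0.05 (SE; adjusted p = 0.0826, edgeR). Zp3r, Spaca7, Zpbp, Izumo2, Spesp1 and Agfg1 were the other 6 genes with every Kpna6-/- sample below every WT sample, with log2 fold changes from -0.17 to -0.08 and adjusted p-values of 0.137 or more (edgeR). Gopc was the 1 gene with every sample above, at 0.14 (adjusted p = 0.268, edgeR). Of all genes tested, 9.82% had every Kpna6-/- sample below WT and 10.2% every sample above. The 95% intervals of the 36 genes lay between -0.48 and 0.27. For Eqtn the interval ran from -0.23 to 0.02 and for Izumo1 from -0.22 to 0.05.

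The difference between the lines was tested directly, since both comparisons above share the WT samples. In Kpna6 ΔIBB/ΔIBB against Kpna6-/- testes 19 of the 36 genes were called lower and 0 higher (edgeR, adjusted p below 0.05), while 30.3% of 18752 genes were called, 16.8% lower and 13.5% higher. In 22 of the 36 every ΔIBB/ΔIBB sample was below every Kpna6-/- sample, which held for 22.7% of all genes tested. The median of the 36 was -0.21, and 0.01 over all genes tested. All 19 were also among the 25 called lower against WT. With library sizes alone 17 of the 36 were lower and 3 higher (Tmf1, Spata16 and Tex101), and the split over all genes changed from 3150 lower and 2524 higher to 2016 lower and 4931 higher. Eqtn had the largest difference, and the log2 fold change was -0.70 ± 0.07 (SE; adjusted p = 1.71e-05, edgeR). It was followed by Izumo3 (-0.55), Izumo1 (-0.54), Hyal5 (-0.53) and Spam1 (-0.52). Prss55 gave the lowest adjusted p, and the log2 fold change was -0.51 ± 0.04 (SE; adjusted p = 8.65e-06, edgeR). For Prss55 and Prss37, whose Kpna6-/- means were above those of WT, the value between the lines was further from 0 than that against WT: Prss37 stood at -0.47 against Kpna6-/- and at -0.37 against WT.

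6 genes lower against WT did not pass against Kpna6-/-: Acrbp, Spesp1, Spaca6, Tmem95, Agfg1 and Ly6k. Agfg1 had the same mean in both lines, with 194 ± 4.02 (SD, n = 3) CPM in ΔIBB/ΔIBB and 194 ± 5.58 (SD, n = 3) CPM in Kpna6-/-, and the 95% interval of the log2 difference ran from -0.09 to 0.07. For the other 5 the intervals, which ran from -0.29 to -0.02 for Spaca6 and from -0.53 to 0.04 for Tmem95, each held the value found against WT. Of the biogenesis genes 0 were called by edgeR with TMM scaling and no replicate block, or by DESeq2. Gopc, 1 of them, had an unadjusted p below 0.05 in edgeR and was called lower with that block.

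The transcripts of each gene were then compared, as a description without a test. The 36 genes had 123 transcripts in the files, and 11 genes had 1 each. In 7 of the 25 genes with several transcripts, the share of the gene's TPM held by the leading WT transcript was lower in all 3 ΔIBB/ΔIBB samples than in all WT samples, and in 0 it was higher. Among 12767 tested genes with several transcripts, 10.5% had a lower and 6.83% a higher share in this sense. These were Acrv1, Dcst1, Hyal5, Izumo3, Prss55, Spaca3 and Spaca6. The leading coding transcript of Dcst1, Dcst1-201, held between 85.9% and 88.8% in WT, between 78.3% and 81.2% in ΔIBB/ΔIBB and between 79.9% and 89.0% in Kpna6-/- testes. A retained intron transcript, Dcst1-205, which was picked out after its values were seen, held between 10.1% and 12.5% in WT, between 17.4% and 18.5% in ΔIBB/ΔIBB and between 9.33% and 11.2% in Kpna6-/- samples. In Hyal5 the coding Hyal5-202 held between 60.3% and 67.9% in WT and between 55.7% and 60.03% in ΔIBB/ΔIBB, the rest being the short noncoding Hyal5-203. Izumo3-201 held between 62.0% and 74.1% in WT and between 56.7% and 61.3% in ΔIBB/ΔIBB. The TPM of Spaca6 was spread over 14 transcripts, of which the leading one, Spaca6-214, is an intron-retaining model with a share of 17.0% ± 6.72 (SD, n = 3) in WT.

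Promoters were read from RefSeq (GRCm38.p6; 250 bases before to 50 after each start) for 31 of the 36 genes, with 34 starts. Acr, Eqtn, Izumo4, Prss55 and Ly6k have no entry. Elements known from spermatid promoters were searched on both strands. The palindromic cAMP response element TGACGTCA, the site of CREM and related factors, was in 1 of the 34 windows, that of Izumo1, and in 1.79% of all 32851 promoters. Its core TGACGT, which the full element includes, was in 4 (Acrbp, Izumo1, Spesp1, Tmem95) and in 7.51% of all promoters. One arm of the X-box that RFX factors bind, GTTGCCA, was in 2 (Pick1, Spaca6) and in 4.38% of all. The TATA box TATAAA was in 2 (Crisp2, Spaca7) and in 13.6% of all. Such matches are descriptions and no evidence of binding. The stretches before the starts of Izumo1, as a gene that fell, and of Pick1, as a biogenesis gene that was not called, are shown with the matched letters in capitals, the full element 96 bases before the start of Izumo1 and the X-box arm, on its other strand, 73 bases before that of Pick1. Just before the Pick1 match the printed strand holds gttgcc, the arm without its last letter, which the search did not count. Neither stretch holds bases of annotated exons. That of Pick1 was printed with fewer bases around its match, so it is shorter and stops before its start.
Izumo1 (GRCm38.p6, chr7:45621561-45621810, plus strand): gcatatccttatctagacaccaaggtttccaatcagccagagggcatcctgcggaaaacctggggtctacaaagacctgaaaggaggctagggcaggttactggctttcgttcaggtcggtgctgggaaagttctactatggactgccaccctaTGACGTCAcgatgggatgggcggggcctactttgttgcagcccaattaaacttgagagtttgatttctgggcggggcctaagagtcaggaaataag
Pick1 (GRCm38.p6, chr15:79229040-79229166, plus strand): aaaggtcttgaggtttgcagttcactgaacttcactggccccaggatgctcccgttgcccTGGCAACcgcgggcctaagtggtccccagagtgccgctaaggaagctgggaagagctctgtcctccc

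Other genes of the same processes were followed through lists. Over all 18797 genes tested in ΔIBB/ΔIBB against WT, 18.9% were called lower and 17.7% higher (edgeR). Of 18 genes for the maturation of sperm surface proteins, such as the fertilin ADAMs and their chaperones, 11 were lower and 0 higher in ΔIBB/ΔIBB against WT testes (median -0.19). Its most abundant gene Cmtm2a stood at -0.16 ± 0.05 (SE; adjusted p = 0.0182), while Adam3, a surface protein needed for binding to the zona, stood at -0.08 ± 0.03 (SE; adjusted p = 0.068, both edgeR). Of 13 tested further fusion and zona factors, 10 were lower and 2 higher, with a median of -0.41. The 2 higher genes, named after their values were seen, were B4galt1 and Mfge8, both also used widely outside germ cells. Llcfc1, a fusion factor, was at -0.41 ± 0.06 (SE; adjusted p = 0.000364) and Spata46, a spermatid protein also needed for fusion, at -0.49 ± 0.07 (SE; adjusted p = 0.000217, both edgeR). Of 18 tested genes for acrosome attachment and exocytosis, 10 were lower and 2 higher (Rab3a and Napa, named after their values were seen, both of the vesicle release machinery), with a median of -0.19. Spink2, a protease inhibitor of the acrosome, stood at -0.19 ± 0.04 and Spaca9 at -0.24 ± 0.04 (SE; adjusted p = 0.00358 and 0.0015, edgeR). Of 13 genes for the Golgi, autophagy and the perinuclear theca in acrosome formation, 6 were lower and 0 higher (median -0.13). Its most abundant genes Cylc2, of the perinuclear theca, and Hook1, a microtubule linker of the manchette, were at -0.42 ± 0.05 and -0.47 ± 0.03 (SE; adjusted p = 0.000171 and 1.02e-05, edgeR). In Kpna6-/- against WT 0 genes of these lists were called by edgeR, and 2, 4, 3 and 2 genes, in the order of the lists, had an unadjusted p below 0.05. Over all genes tested in that comparison, 1.6% were called and 2778 of 18681 had such a p (edgeR). The egg-side partners served as a contrast: 5 of 6, among them Izumo1r, which codes for JUNO, and the zona genes, were below 1 TPM in each testis.

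Spermatid markers went the same way as most of these genes, and Sertoli markers went the other way. All 10 round spermatid markers and all 12 elongating spermatid markers were lower in ΔIBB/ΔIBB than in WT testes, with medians of -0.52 and -0.37. The summed level of the round spermatid markers was 2133, 2020.0 and 2232 TPM in WT, 1707, 1664 and 1884 TPM in ΔIBB/ΔIBB and 1968, 1990.0 and 2092 TPM in Kpna6-/- testes. Of 10 pachytene spermatocyte markers 4 were lower and 0 higher (median -0.12). All 12 Sertoli markers were higher, with a median of 0.59, and their sum was 646, 595 and 616 TPM in WT, 1169, 1100.0 and 999.7 TPM in ΔIBB/ΔIBB and 734, 746 and 720.2 TPM in Kpna6-/- samples. No marker of either list was at 0 in all samples. Among the 3 ΔIBB/ΔIBB testes, replicate 3 had the highest round spermatid sum and the lowest Sertoli sum. It also had the highest value of the 3 in 27 of the 36 genes, a count that was not made over all genes tested. The same replicate had the highest sum of epididymis and seminal vesicle markers, 193 TPM. Of the 10 spermatogonium markers 3 were higher and 1 lower, of the 8 macrophage markers 4 were higher, of the 8 peritubular and endothelial markers 3, and of the 8 Leydig markers 2. Over all genes tested in ΔIBB/ΔIBB against WT, 17.7% were called higher and 18.9% lower (edgeR). The part of the cell composition in the falls of the acrosome genes was not tested. In Kpna6-/- against WT testes 0 of the round and elongating spermatid markers were called (edgeR; 3 of the round and 1 of the elongating markers had an unadjusted p below 0.05) and 2 of the 12 Sertoli markers were higher (Aard and Amhr2, named after their values were seen). Over all genes tested there, 0.889% were called higher, and 2778 of 18681 had an unadjusted p below 0.05 (edgeR).

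**Figure D4:**
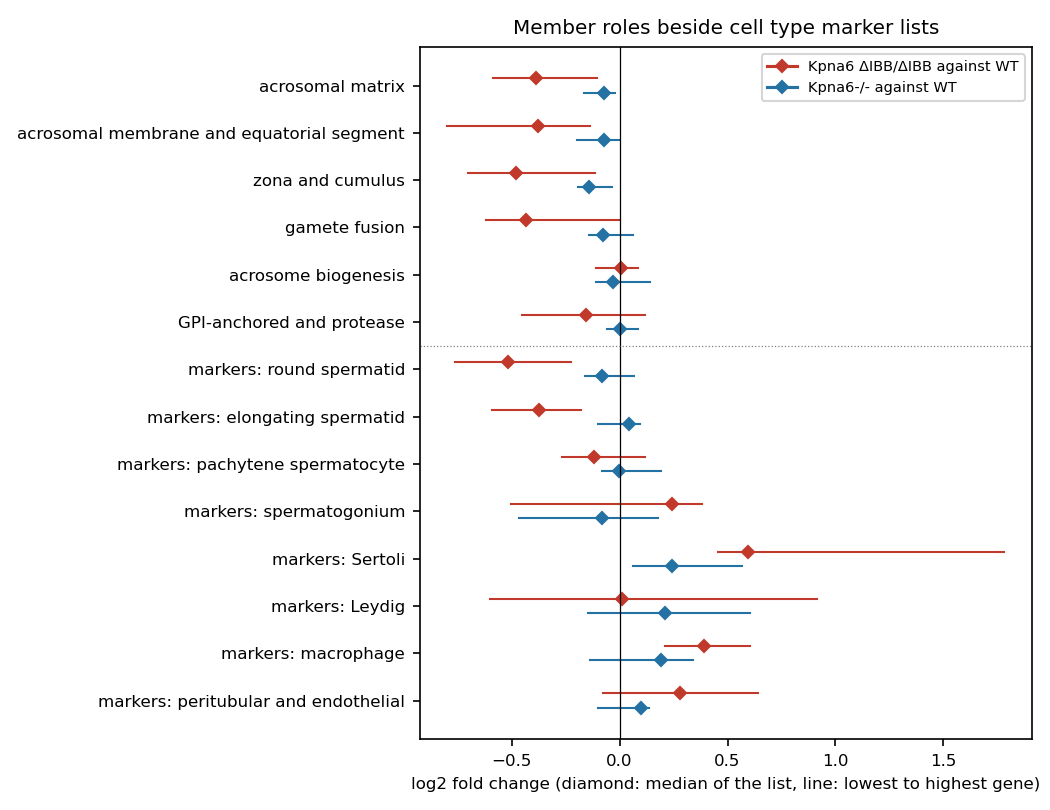
Log2 fold change against WT for the 6 roles (above the dotted line) and for cell type marker lists (below it), in Kpna6 ΔIBB/ΔIBB (red) and Kpna6-/- testes (blue); the diamond is the median of a list and the line spans its lowest to highest gene. Acrosome contents, membranes and fusion genes share the side of the spermatid markers, the biogenesis genes have a median of 0.01 in ΔIBB/ΔIBB, and the Sertoli markers lie above 0 in both lines.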

How the data were processed

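RNA of whole testes from 3 genotypes (Kpna6-/-, Kpna6 ΔIBB/ΔIBB and WT, with 3 mice in each) was sequenced with a paired-end kit that does not mark strand. The authors pseudo-aligned the reads to mouse transcripts with kallisto (version 0.45 in the submitters' processing notes; the transcript release is not given in the sources used here) and deposited, for each testis, the estimated counts and the TPM values of 96626 transcripts. Of these, 95301 (98.6%) were assigned to 32035 genes by the reference annotation (GRCm38), which held between 99.54% and 99.56% of the counts. Estimated counts and TPM were summed per gene, and the sums of counts were rounded to whole numbers. Genes with low counts were removed with filterByExpr, samples were scaled by TMM, and each pair of groups was compared in edgeR 4.0.16 (R 4.3.3) by its quasi-likelihood F test, with Benjamini-Hochberg adjustment over all genes tested and a threshold of 0.05. The test that the study names for these data, sleuth, was not used here. Replicate numbers did not pair the samples, so no block was used.

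The 36 genes, the pathway lists and the marker lists were chosen with earlier results of these data known. Values of each sample are given for genes called against WT with the 3 largest changes of their role and for genes whose call depended on the scaling. In the other lists the 2 genes with the highest TPM are named. Ggnbp1 has 2 identifiers and was left out of its list. Alternatives were DESeq2 1.42.0, no filter, a filter of 10 counts in 3 samples, library sizes without TMM, all 9 samples in 1 fit, the replicate block, limma 3.58.1 on log2(TPM + 1) and log2(TPM + 0.1), sums with near-identical sequences (blastn 2.17.0+, at least 100 bases at 95% identity), and each sample left out in turn. A limit of 99% identity was added after seeing the data. Depth was between 24859751 and 31484692 counts on genes per testis. P-values set the difference between groups against the spread between these samples, which the fits moderate over all genes.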

Additional observations from a re-analysis of the deposited data

How the results depend on the processing

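No called value changed direction under any alternative. In ΔIBB/ΔIBB against WT 9 of the 25 falls (Acr, Acrbp, Spaca4, Spesp1, Spaca6, Tmem95, Dcst1, Agfg1 and Ly6k) were lost under at least 1 alternative. Over all comparisons together, 95 of 1024 values that were not called changed sign. Scaling mattered most. With library sizes alone the median of the 36 genes was -0.19 and 3 genes were higher; with limma on log2(TPM + 1) and on log2(TPM + 0.1) it was -0.183 in both and 4 genes were higher. Against Kpna6-/- 3 genes were higher in each of these fits, 12 were lower in both limma fits, and the medians were -0.106, -0.083 and -0.085. That TMM centres the genes and the others do not is part of their construction; the cause of the shift was not tested. The numbers did not pair the samples (correlations of same-numbered samples from 0.006 to 0.088 in ΔIBB/ΔIBB against WT, from -0.048 to 0.006 in Kpna6-/- against WT and from 0.008 to 0.119 between the lines, and 3, 0 and 3 of 6 samples closest to their own number). With the replicate block 1 gene, Tex101, was higher in ΔIBB/ΔIBB against WT and 1, again Tex101, against Kpna6-/-, with 25 and 21 lower. Against WT Zpbp2 was then called and Tmem95 was not (adjusted p = 0.0529, edgeR), and against Kpna6-/- Spaca6 and the biogenesis gene Gopc (-0.15, adjusted p = 0.0325) were called lower. With 1 sample left out, between 19 and 24 genes were lower in ΔIBB/ΔIBB against WT (median from -0.328 to -0.246) and between 18 and 22 against Kpna6-/- (median from -0.253 to -0.167). In Kpna6-/- against WT between 0 and 1 gene was lower (Hyal5 without WT replicate 2; median from -0.08 to -0.042), and DESeq2 called 1, Spam1. Over all genes Kpna6-/- against WT gave 133 lower and 166 higher genes with edgeR, 223 and 254 with DESeq2, 275 and 349 without a filter, 89 and 140 with the replicate block, and 17 and 15 with limma on log2(TPM + 1). Leaving out any 1 sample moved at least 1 of the edgeR counts, lower or higher, by over 1.5 times. They became 164 and 354 without WT replicate 1, 72 and 63 without WT replicate 2, and 67 and 78 without WT replicate 3. Without Kpna6-/- replicates 1, 2 and 3 they became 43 and 49, 53 and 60, and 91 and 89. The cause was not tested. Depth was least for Spaca5 and Tmem95, whose intervals were the widest.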
